A study of Mus musculus with 19 samples.

Results

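Amino acid transporters are the solute carriers that move amino acids across the plasma membrane and the membranes of lysosomes. They were taken here as every gene of solute carrier families 1, 3, 6, 7, 36, 38 and 43, that is, every row named Slc, 1 of these family numbers, the letter a and a member number. Of 53656 genes listed, 60 matched. Of these, 33 reached 1 CPM (a count scaled to its library's total) in at least 2 of 19 libraries and are described below. The other 27 were not measured by this limit, and 12 of them had no count in any library. RNA was sequenced from CD8 T cells of C57BL/6 mice in 7 groups. The transgenic receptor of SV40-I cells recognises an SV40 large T antigen peptide, and that of OT-I cells an ovalbumin peptide. Naive SV40-I cells (3 libraries) were sorted as CD8 with low CD44. From malignant liver lesions, 3 libraries each were made of SV40-I cells (CD8, Thy1.1) and of OT-I cells (CD8, Ly5.1) at days 20 to 21, and of SV40-I cells labelled high or low for PD1, LAG3 and CD39 at days 8 to 9, which are called marker-high and marker-low. Culture supplied 2 libraries each of naive SV40-I cells that were activated by anti-CD3/CD28, given a TOX-GFP or GFP-only construct by retrovirus, grown with IL-2 and sorted as CD8+ and GFP+. TOX is a transcription factor of chronically stimulated T cells. The source field reads splenocytes for every library, lesion libraries included. Column headings hold the word WT in marker-high and KO in marker-low tables while no label gives a genotype, so tissue and genotype are not certain. Whether replicates were separate animals or cultures, the ages of the mice and the tumour model are not stated in the labels.

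A naive T cell takes up few nutrients. After activation through its receptor a T cell raises the uptake of leucine, glutamine, serine, arginine and cystine to build protein and nucleotides, and the mTORC1 kinase complex at the lysosome senses the supply. SLC7A5 (LAT1) carries large neutral amino acids and reaches the membrane only when bound to the heavy chain SLC3A2 (CD98). SLC1A5 (ASCT2) and the SNAT carriers of family 38 carry glutamine and small neutral amino acids, SLC7A1 carries arginine and lysine, and SLC7A11 exchanges cystine for glutamate. The factors ATF4 and MYC are known to drive many of these genes.

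Library totals ran from 37006508 to 54195918 counts, so 3 counts, the upper limit for a gene without counts, stand for 0.0554 to 0.0811 CPM. Summed T cell transcripts (8 of 8 genes seen in every group) were 6717 to 30025 CPM per library. Tox was at 118 to 156 CPM in the TOX-GFP and 13.8 to 21.4 CPM in the GFP libraries. Transcripts of other cells differed between libraries. A list of 10 hepatocyte genes summed to 1325 CPM in SV40-I day 20 to 21 replicate 2, to 938 and 1642 CPM in OT-I replicates 2 and 3, and to at most 50.5 CPM elsewhere. A list of 9 macrophage and Kupffer genes summed to 3870 to 5699 CPM in marker-high, 688 to 8449 CPM in marker-low, 47.7 to 1051 CPM in SV40-I day 20 to 21, 296 to 649 CPM in OT-I, 106 to 275 CPM in naive and 2.31 to 4.47 CPM in cultured libraries. All 10 hepatocyte genes had counts in the 4 lesion groups, while Fga and Cyp2e1 had none in naive cells. All 9 macrophage genes had counts in the lesion groups, Vsig4 had none in naive cells, and Vsig4, Clec4f and Marco had none in the cultured cells. Marker-low replicate 2 and marker-high replicate 3 stood apart from the other libraries of their groups. Chi-square over degrees of freedom was 485.3 and 481.5 for the first and 107.5 between the others, and 315.5 and 332.6 for the second and 73.99 between the others. SV40-I day 20 to 21 replicate 1, the library at 47.7 CPM of macrophage transcripts, had 231.3 and 252.4, with 105.7 between the others. Naive replicate 2 had 186.2 and 302.7, with 111 between the others. Without marker-low replicate 2 the marker-low calls against naive cells, 8 as given below, again numbered 8, but Slc7a6 was no longer among them. Without marker-high replicate 3 the 9 marker-high calls were 8. The hepatocyte and macrophage sums are given beside the transporters they moved with below. In these bulk libraries, fewer cells that express a gene and less RNA of it per cell cannot be told apart.

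The 33 measured members were made up of 9 of 15 genes of family 7, 9 of 11 of family 38, 5 of 18 of family 6, 3 of 7 of family 1, 3 of 4 of family 36, 3 of 3 of family 43 and 1 of 2 of family 3. Among them, 12 were at 1 CPM or more in all 19 libraries, and 11 reached 100 CPM in at least 1 library. Just inside the limit were Slc6a12, with 4 libraries at 1 CPM or more and a highest level of 3.72 CPM, and Slc38a5, with 3 libraries and 4.07 CPM. Just outside it were Slc6a4 (highest level 2.65 CPM), Slc38a8 (1.30 CPM) and Slc6a11 (1.29 CPM), each with 1 library at 1 CPM or more. The creatine carrier Slc6a8 stayed at or under 0.406 CPM. Exons of 8 measured members overlap another gene, and the counting took no account of strand. The overlap covered 30.2% of the exonic bases of Slc6a9 and 1.09% to 9.18% of those of the other 7 (Slc43a2, Slc7a7, Slc7a2, Slc38a10, Slc1a2, Slc6a6 and Slc38a9), so reads of the partner gene cannot be told apart there.

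**Figure D1:**
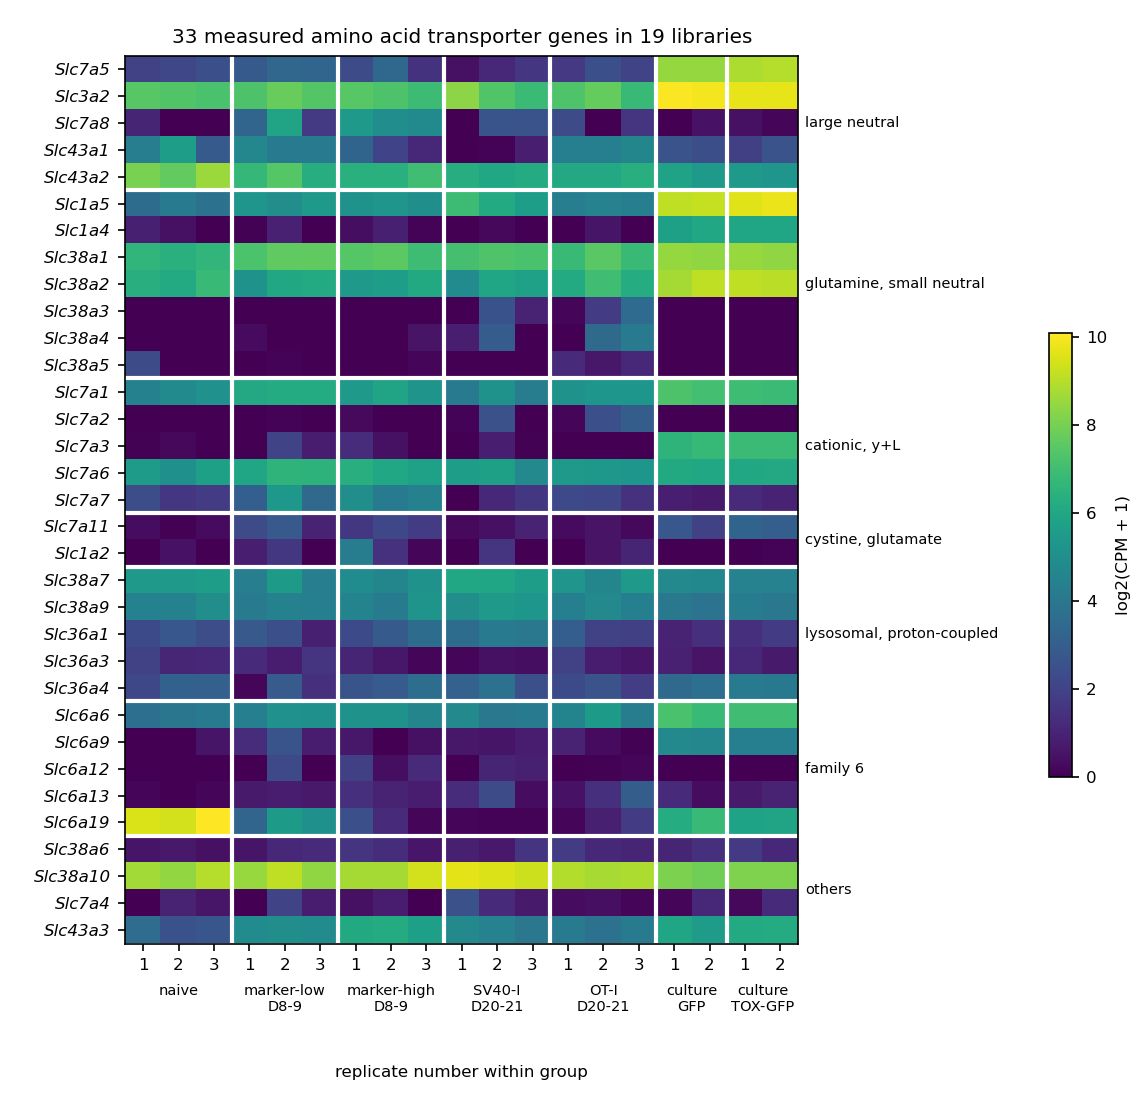
Level of each measured amino acid transporter (rows, by role) in each of 19 libraries (columns, by group), as log2(CPM + 1). Slc7a5, Slc1a5, Slc1a4 and Slc7a3 are bright in the 4 cultured libraries, Slc6a19 in the 3 naive libraries, and Slc38a10 and Slc3a2 in all 19.

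The transporters took a larger share of all counts in cultured cells than in any ex vivo group. They held 0.378% ± 0.000299 (SD, n = 2) of the counts in GFP and 0.404% ± 0.00609 (SD, n = 2) in TOX-GFP libraries, against 0.209% ± 0.0397 (SD, n = 3) in naive, 0.136% ± 0.0322 in marker-low, 0.136% ± 0.00879 in marker-high, 0.151% ± 0.0232 in SV40-I day 20 to 21 and 0.117% ± 0.00984 in OT-I libraries (SD, n = 3 each). No ex vivo library overlapped the cultured ones. Which genes made up that share also differed. Per kilobase of exon, the highest member in naive cells was Slc6a19 at 164 ± 44.9 CPM (SD, n = 3), which was 45.8% of the sum over the members. In the 4 lesion groups the highest was Slc38a10, an orphan carrier of family 38, for example 113 ± 13.4 CPM per kilobase (SD, n = 3) in SV40-I day 20 to 21 cells, followed by the heavy chain Slc3a2. In cultured GFP cells the order was Slc3a2 at 282 ± 17.9, Slc1a5 at 136 ± 6.53 and Slc7a5 at 95.8 ± 0.389 CPM per kilobase (SD, n = 2).

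**Figure D2:**
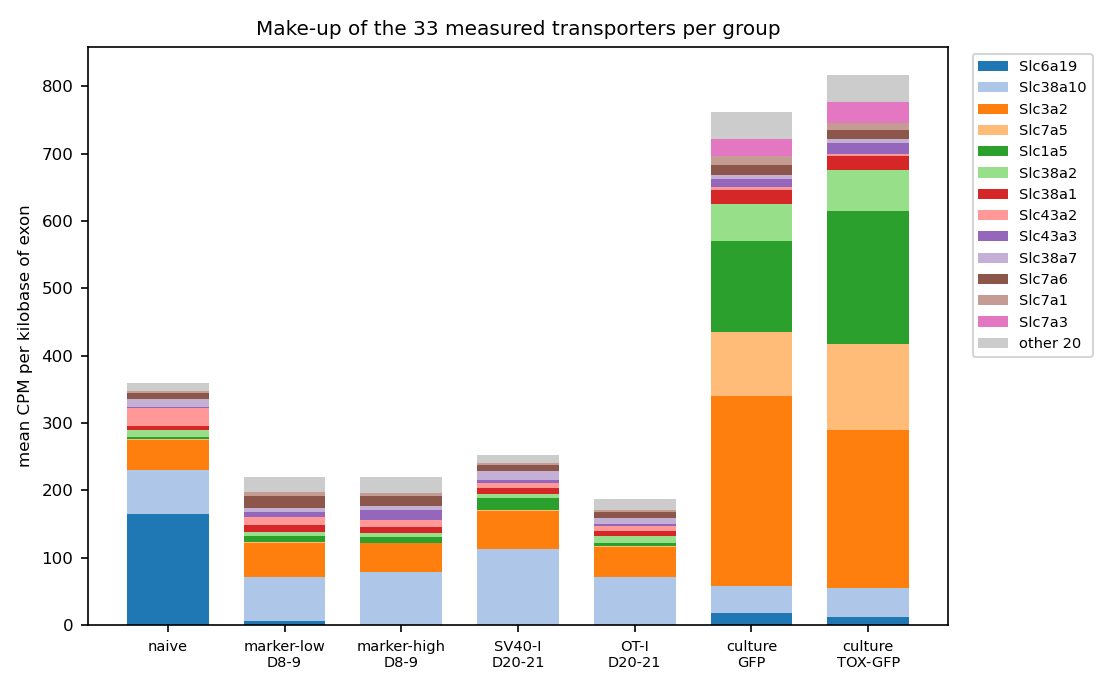
Mean CPM per kilobase of exon (vertical axis) of the 33 measured transporters stacked by group, with 13 genes in colour and the other 20 in grey. Slc6a19 fills 45.8% of the naive bar, whereas Slc3a2, Slc1a5 and Slc7a5 fill most of both cultured bars.

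A test for any difference among the 7 groups called 26 of 33 members, against 56.7% of all 18608 genes tested (edgeR quasi-likelihood F test, Benjamini-Hochberg adjusted p under 0.05, as in every call below). Slc1a4 reached 1 CPM in cultured libraries alone, and Slc38a3, Slc38a4 and Slc7a2 in libraries of days 20 to 21 alone. They are measured members only through groups in which they were high, and the 26 include them. The 7 without a call were Slc1a2, Slc6a12, Slc6a13, Slc36a3, Slc36a4, Slc38a6 and Slc7a4, whose highest levels ran from 2.47 to 17.8 CPM. Among the comparisons with naive cells, which all share the same 3 naive libraries, 23 of 33 members were called at least once, against 52.4% of the 16404 genes tested in all 5. The 23 include Slc1a4 and Slc38a3. Here and below, all genes means those that passed the filter of the fit. The limit set for the members was met by 14188 genes, and shares over these were not computed.

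Cultured GFP cells differed from naive cells in 18 of 33 members, 12 higher and 6 lower, against 32.6% of all genes (17.6% higher and 15% lower). The large neutral carrier Slc7a5 with its partner Slc3a2, the glutamine and small neutral carriers Slc1a5, Slc1a4, Slc38a1 and Slc38a2, the cationic carriers Slc7a1 and Slc7a3, the cystine exchanger Slc7a11, the taurine carrier Slc6a6, the glycine carrier Slc6a9 and Slc43a3 rose. Slc43a2, Slc6a19, Slc38a10 and the lysosomal carriers Slc38a7, Slc38a9 and Slc36a1 fell. Slc1a4 reached 1 CPM in the 4 cultured libraries alone, so it is a measured member only through the cells in which it rose. The median log2 fold change over the 33 members was 0.24, beside 0.00 over all genes. Culture, stimulation and transduction cannot be told apart in this comparison. TMM factors were 1.17 to 1.23 in cultured and 0.906 to 1.05 in ex vivo libraries, so fitted changes in culture lie lower than ratios of the CPM printed below, with the same direction in each of the 18. With GFP replicate 1 or 2 left out the calls were 14 and 13.

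Early lesion cells differed from naive cells in fewer members and also in a smaller share of all genes, by the separate fit of the ex vivo libraries. Marker-high cells had 9 calls of 33 against 23.4% of all genes (14.3% higher and 9.10% lower), with Slc43a3, Slc7a11, Slc7a7, Slc1a5, Slc6a6, Slc7a1 and Slc38a1 higher and Slc6a19 and Slc43a2 lower. Marker-low cells had 8 calls against 16.8% (10.6% higher and 6.21% lower), with Slc7a11, Slc43a3, Slc1a5, Slc7a1, Slc38a1 and Slc7a6 higher and Slc6a19 and Slc43a2 lower. Median log2 fold changes over the members were 0.80 and 1.04, beside 0.06 and 0.09 over all genes. With the summed macrophage list as a covariate the counts were 4 and 2, against 9.58% and 8.21% of all genes. Among the calls lost there, Slc6a6 in marker-high cells (1.66 ± 0.53, SE) kept a log2 fold change at least as large as without it. So did Slc7a6 (1.07 ± 0.39), Slc43a2 (-1.46 ± 0.46) and Slc6a19 (-5.51 ± 1.71) in marker-low cells. The other lost calls had smaller changes with the covariate, and that of Slc7a7 in marker-high cells turned. That covariate was added after the data had been seen. Without naive replicate 2 or 3 or marker-high replicate 1 or 2 the marker-high count was 6.

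At days 20 to 21, SV40-I cells differed from naive cells in 9 of 33 members against 18.0% of all genes (11.1% higher and 6.86% lower). Slc1a5, Slc43a3, Slc38a1, Slc38a10, Slc6a13 and Slc38a3 were higher, and Slc6a19, Slc43a1 and Slc43a2 lower. OT-I cells of days 20 to 21 differed from naive cells in 5 members against 7.35% (5.06% higher and 2.29% lower), with Slc43a3, Slc6a13 and Slc38a3 higher and Slc6a19 and Slc43a2 lower. Slc38a3 reached 1 CPM in 3 libraries, all of days 20 to 21, so it is a measured member only through these cells. Medians over the members were 0.74 and 0.07, beside 0.05 and 0.04 over all genes. With the hepatocyte list as a covariate the counts were 5 and 1, against 11.1% and 3.14% of all genes. Without single libraries they ran from 5 (without naive replicate 2 or SV40-I replicate 2) to 9, and from 2 (without naive replicate 2 or 3 or OT-I replicate 2 or 3) to 5, with 6 without naive replicate 1 for SV40-I and 3 without it for OT-I cells.

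SV40-I and OT-I cells of days 20 to 21 differed in 2 of 33 members, against 9.02% of all genes (4.91% higher and 4.11% lower). The neutral carrier Slc1a5 was higher and the branched-chain carrier Slc43a1 lower in SV40-I cells. The median over members was 0.16, beside -0.04 over all genes, and 11 members were at an unadjusted p under 0.05. Without SV40-I replicate 2 the count was 3, and without the 3 libraries over 500 CPM of hepatocyte transcripts it was 0, with a single OT-I library remaining. No member was called between marker-high and marker-low cells, against 1.19% of all genes by edgeR (0.475% higher and 0.719% lower). There 3 members were at an unadjusted p under 0.05 (Slc6a19, Slc43a3 and Slc7a1), and DESeq2 called 2. Between SV40-I cells of days 20 to 21 and marker-high cells of days 8 to 9, 3 members were called against 5.33% (1.76% higher and 3.57% lower), Slc1a5 higher and Slc43a3 and Slc7a7 lower at the late time. That count was 0 without marker-high replicate 1 or 2, 1 without SV40-I replicate 2, 2 without SV40-I replicate 3 and 9 without marker-high replicate 3.

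Forced TOX expression gave no edgeR call among 27 members tested, against 0.00% of 14614 genes. Tox itself was not called either, at 118 to 156 CPM in TOX-GFP and 13.8 to 21.4 CPM in GFP libraries. With 2 libraries per group, a missing call here does not show that a transporter is unchanged. Among the 27 members 6 were at an unadjusted p under 0.05, and DESeq2 called 2 members. Without GFP replicate 1 edgeR called 1 member (Slc6a19), and without GFP replicate 2 it called 1 (Slc1a5). Slc1a5 was at 771 and 876 CPM in TOX-GFP and 547 and 586 CPM in GFP libraries (log2 fold change 0.54 ± 0.11 (SE), edgeR adjusted p = 0.218). Slc7a5 was at 455 and 491 against 354 and 356 CPM (0.41 ± 0.10, adjusted p = 0.247 by edgeR). Slc6a19 was at 56.0 and 57.6 against 75.3 and 111 CPM (-0.71 ± 0.20, adjusted p = 0.275 by edgeR). The groups did not overlap in 15 of the 27 members, these 3 included, against 47.3% of all genes tested. Slc36a4 (0.56 ± 0.19), Slc43a3 (0.44 ± 0.16) and Slc3a2 (-0.26 ± 0.10) were the other 3 at an unadjusted p under 0.05, also without overlap, with edgeR adjusted p from 0.321 to 0.373.

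**Figure D3:**
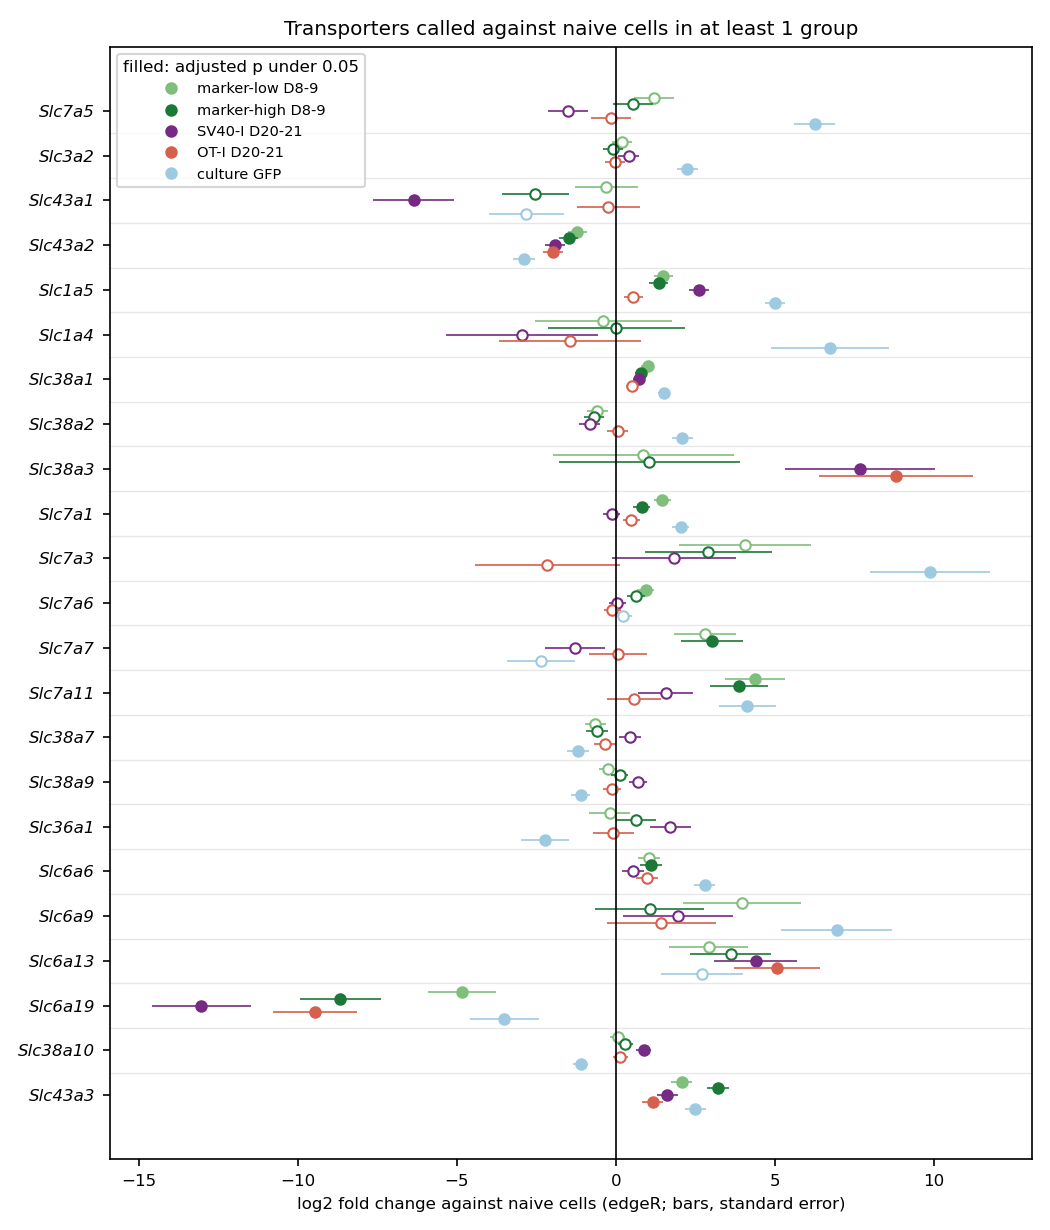
Log2 fold change against naive cells (horizontal axis, edgeR, bars 1 standard error) of the 23 transporters called in at least 1 of 5 comparisons, which share the naive libraries. Filled points are calls, and 1 value with a standard error too large to draw (Slc38a3 in cultured cells) is left out. Slc43a2 and Slc6a19 lie left of 0 with filled points in all 5 comparisons, Slc43a3 right of 0, and the cultured cells stand apart for Slc7a5, Slc3a2, Slc1a4, Slc38a2, Slc7a3 and Slc6a9.

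Among the carriers of large neutral amino acids, Slc7a5 (chromosome 8, 121881150 to 121907694, minus strand, GRCm38.p6 as for all positions here) encodes LAT1, the main leucine carrier of activated T cells. It was at 354 and 356 CPM in GFP and 455 and 491 CPM in TOX-GFP libraries. Naive cells had 2.91, 3.40 and 4.52 CPM, marker-low cells 6.23, 9.08 and 8.72 CPM and marker-high cells 3.96, 9.67 and 1.75 CPM. SV40-I cells of days 20 to 21 had 0.377, 1.25 and 1.98 CPM and OT-I cells 2.15, 4.43 and 3.21 CPM. Every ex vivo library was thus under 10 CPM, and every cultured one above 350 CPM (log2 fold change 6.25 ± 0.65 (SE), edgeR adjusted p = 5.98e-06 for GFP against naive). The late SV40-I libraries were all below the naive ones, a difference that did not pass the test (log2 fold change -1.50 ± 0.64, edgeR adjusted p = 0.123).

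Slc3a2 (chromosome 19, 8706882 to 8723369, minus strand), the heavy chain that LAT1 and the other light chains need, was abundant everywhere. Naive libraries had 177, 163 and 144 CPM, marker-low 155, 213 and 166 CPM and marker-high 175, 152 and 119 CPM. Late SV40-I libraries had 323, 162 and 118 CPM and OT-I libraries 156, 207 and 111 CPM. All 5 ex vivo groups overlapped. In culture it was at 1039 and 949.6 CPM with GFP and 824 and 839 CPM with TOX-GFP, above every ex vivo library (log2 fold change 2.25 ± 0.33 (SE), edgeR adjusted p = 9.43e-05 for GFP against naive). Per kilobase, Slc3a2 exceeded the sum of its measured light chains Slc7a5, Slc7a6, Slc7a7, Slc7a8 and Slc7a11 in all 19 libraries. The ratio was 4.14 ± 1.12 (SD, n = 3) in naive, 1.81 ± 0.517 in marker-low, 1.43 ± 0.0968 in marker-high, 5.31 ± 2.60 in late SV40-I and 4.08 ± 1.11 in OT-I cells (SD, n = 3 each), and 2.54 ± 0.155 and 1.65 ± 0.0619 in GFP and TOX-GFP cells (SD, n = 2 each). Slc7a5 made up 86.4% ± 0.567 (SD, n = 2) of the light chain sum in GFP cells and 8.68% ± 2.11 (SD, n = 3) in naive cells, where Slc7a6 made up 83.2% ± 2.03 (SD, n = 3). Slc7a7 and Slc7a8, whose levels moved with macrophage transcripts (below), made up 22.9% ± 4.78 and 22.4% ± 0.875 of the sum in marker-high cells and 7.48% ± 2.48 and 0.567% ± 0.981 in naive cells (SD, n = 3 each). They made up 26.0% and 24.7% in marker-low replicate 2, and the part of macrophage transcripts in the ratios was not tested.

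Slc43a1 (chromosome 2, 84838850 to 84863594, plus strand) and Slc43a2 (chromosome 11, 75531694 to 75577575, plus strand) encode LAT3 and LAT4, which carry branched-chain amino acids without a heavy chain. Slc43a1 was at 0, 0.0738 and 0.784 CPM in late SV40-I cells and 19.6, 19.3 and 23.6 CPM in OT-I cells. Naive cells had 18.9, 49.4 and 6.18 CPM, marker-low cells 24.1, 16.9 and 17.3 CPM and marker-high cells 8.47, 3.07 and 1.24 CPM. All 3 late SV40-I libraries lay below every other library, and the 3 naive libraries spread widely. It fell in late SV40-I against OT-I cells (log2 fold change -6.10 ± 1.26 (SE), edgeR adjusted p = 0.00837) and against naive cells (log2 fold change -6.35 ± 1.27 (SE), edgeR adjusted p = 0.00389). The first call was lost without libraries over 1000 CPM of hepatocyte transcripts (2 libraries) at a log2 fold change of -5.52 ± 1.51 (SE, edgeR adjusted p = 0.0696). Cultured cells had 4.94 and 4.43 CPM with GFP and 2.77 and 4.95 CPM with TOX-GFP. Against naive cells the marker-high change of -2.53 ± 1.05 did not pass (edgeR adjusted p = 0.0984).

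Slc43a2 was highest in naive cells, at 265, 201 and 377 CPM. Marker-low cells had 105, 169 and 75.9 CPM and marker-high cells 84.2, 84.5 and 126 CPM. Late SV40-I cells had 76.9, 62.8 and 71.8 CPM, OT-I cells 66.6, 66.2 and 78.7 CPM, GFP cells 54.8 and 43 CPM and TOX-GFP cells 41.3 and 36.9 CPM. The 3 naive libraries were above all 16 others. The fall against naive cells passed in each of the 5 comparisons, from -1.20 ± 0.30 in marker-low cells (SE, edgeR adjusted p = 0.0169) to -2.89 ± 0.35 in GFP cells (adjusted p = 1.79e-05 by edgeR). The marker-low call was lost without marker-low replicate 1 or 3 or naive replicate 3 (adjusted p from 0.0539 to 0.0811). The OT-I call (-1.97 ± 0.31, edgeR adjusted p = 0.00133) was lost with the hepatocyte list as a covariate at a log2 fold change of -1.995 (adjusted p = 0.0526 by edgeR). The marker-low call was lost with the macrophage list as a covariate at -1.46 ± 0.46 (adjusted p = 0.0722).

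Slc7a8 (chromosome 14, 54722209 to 54781946, minus strand) encodes LAT2, the second light chain for large neutral amino acids. It was at 42.4, 30.0 and 27.3 CPM in marker-high and 8.88, 58.2 and 2.24 CPM in marker-low libraries. Naive libraries had 1.05, 0 and 0 CPM, late SV40-I 0, 5.18 and 5.04 CPM and OT-I 4.05, 0 and 1.87 CPM, and the cultured libraries 0.0226 and 0.392 CPM with GFP and 0.361 and 0.143 CPM with TOX-GFP. Its level was highest in marker-low replicate 2, the library with the most macrophage transcripts (8449 CPM), and at most 5.18 CPM outside the 2 early lesion groups. The part of macrophage transcripts in its level was not tested. It did not pass in any comparison of 2 groups (log2 fold change 6.57 ± 2.24, edgeR adjusted p = 0.0501 for marker-high against naive), while the test over 7 groups called it (adjusted p = 0.0210 by edgeR).

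**Figure D4:**
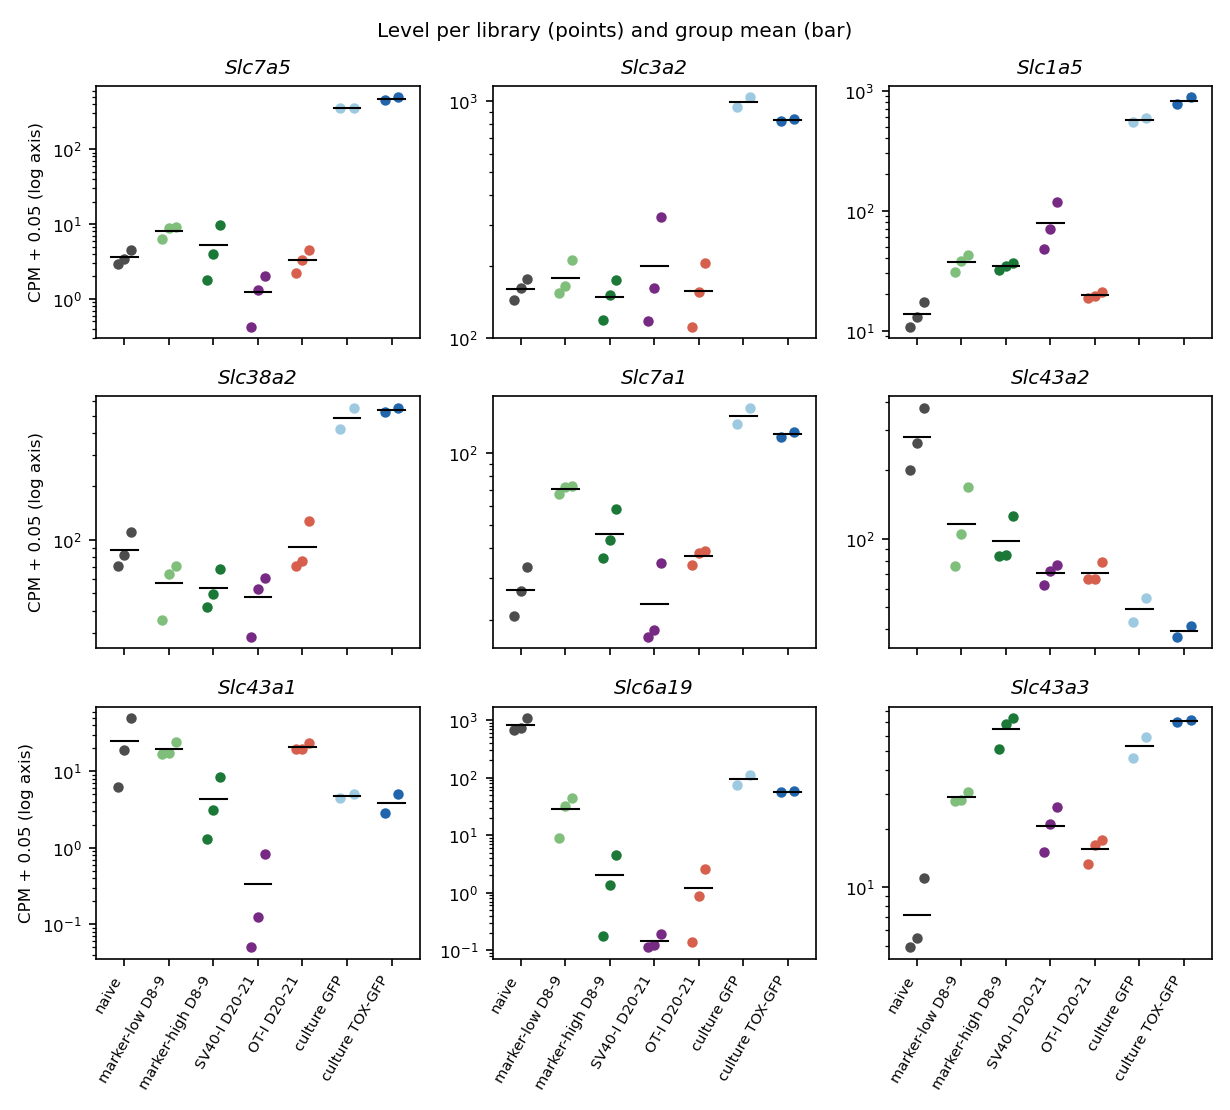
CPM per library (points) of 9 transporters by group, with the group mean (bar), on log axes after adding 0.05 CPM. Slc7a5, Slc3a2, Slc1a5 and Slc38a2 sit highest in the 4 cultured libraries, Slc43a2 and Slc6a19 in the 3 naive ones, and Slc43a1 is lowest in the 3 SV40-I libraries of days 20 to 21.

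Of the glutamine and small neutral carriers, Slc1a5 (chromosome 7, 16781340 to 16798274, plus strand), which encodes the sodium-dependent exchanger ASCT2, had little overlap between groups. Naive libraries had 10.7, 17.2 and 12.9 CPM and OT-I libraries 18.8, 20.9 and 19.3 CPM. Marker-low libraries had 37.7, 30.6 and 42.7 CPM and marker-high libraries 34.3, 36.8 and 31.7 CPM. Late SV40-I libraries had 119, 70.7 and 48.0 CPM, and the cultured ones were at 547 to 586 CPM with GFP and 771 to 876 CPM with TOX-GFP. In this order of groups only marker-low and marker-high overlapped. Slc1a5 rose against naive cells in marker-low (1.50 ± 0.30), marker-high (1.36 ± 0.30), late SV40-I (2.62 ± 0.31) and GFP cells (4.99 ± 0.32; log2 fold change ± SE, edgeR adjusted p from 1.55e-07 to 0.00690), and each of these calls was kept under every alternative run. OT-I cells were above naive cells with no overlap, but the difference did not pass (log2 fold change 0.54 ± 0.30, edgeR adjusted p = 0.329).

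Between the lesion groups, Slc1a5 was higher in late SV40-I than in OT-I cells (log2 fold change 2.08 ± 0.31 (SE), edgeR adjusted p = 0.000992), and that call was kept without any single library. It was lost without the 3 libraries over 500 CPM of hepatocyte transcripts, which leaves 1 OT-I library, at a log2 fold change of 2.13 ± 0.56 (SE, adjusted p = 0.122 by edgeR). Slc1a5 was also higher in late SV40-I than in early marker-high cells (log2 fold change 1.26 ± 0.30 (SE), edgeR adjusted p = 0.0296). The latter call was lost without SV40-I replicate 1 or 2 or marker-high replicate 1 or 2 (adjusted p from 0.05002 to 0.112), and with the macrophage list as a covariate, where the log2 fold change was 0.44 ± 0.31 (edgeR adjusted p = 0.506).

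Slc1a4 (chromosome 11, 20302180 to 20332713, minus strand), the related carrier ASCT1 for serine, alanine and cysteine, was at 52.3 and 64.6 CPM in GFP and 61.6 and 61.9 CPM in TOX-GFP cells (log2 fold change 6.73 ± 1.86 (SE), edgeR adjusted p = 0.0113 for GFP against naive). Naive cells had 0.872, 0.372 and 0 CPM, marker-low cells 0.0477, 0.878 and 0 CPM and marker-high cells 0.303, 0.870 and 0.0773 CPM, late SV40-I cells 0, 0.148 and 0 CPM and OT-I cells 0, 0.486 and 0 CPM. Every ex vivo library was under 1 CPM. Slc38a1 (chromosome 15, 96571418 to 96642913, minus strand), which encodes the glutamine carrier SNAT1, was at 97.8, 83.5 and 98.8 CPM in naive cells. Marker-low cells had 151, 194 and 195 CPM, marker-high cells 172, 185 and 122 CPM and late SV40-I cells 138, 158 and 146 CPM. OT-I cells had 111, 179.5 and 109 CPM, GFP cells 357 and 338 CPM and TOX-GFP cells 362 and 334 CPM. The 3 naive libraries were the lowest of all 19 and the cultured ones the highest. It rose against naive cells in marker-low (1.00 ± 0.19), marker-high (0.80 ± 0.19), late SV40-I (0.74 ± 0.19) and GFP cells (1.52 ± 0.19; log2 fold change ± SE, edgeR adjusted p from 2.64e-05 to 0.0185). The late SV40-I call was lost without naive replicate 2 or SV40-I replicate 2 (adjusted p from 0.0688 to 0.0719), and the marker-low and marker-high calls with the macrophage list as a covariate at log2 fold changes of 0.94 ± 0.28 and 0.72 ± 0.33 (edgeR adjusted p = 0.0612 and 0.191). With the hepatocyte list as a covariate the late SV40-I call of Slc38a1 was lost at 0.62 ± 0.27 (SE, edgeR adjusted p = 0.163).

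Slc38a2 (chromosome 15, 96687392 to 96699730, minus strand) encodes SNAT2, whose amount is known to rise when amino acids are scarce. It was at 419 and 552 CPM in GFP and 553 and 522 CPM in TOX-GFP cells. Naive cells had 81.9, 71.1 and 111 CPM, OT-I cells 71.2, 127 and 75.5 CPM and late SV40-I cells 28.3, 60.6 and 53.1 CPM. Marker-low cells had 35.3, 63.9 and 71.1 CPM and marker-high cells 42.0, 49.6 and 68.6 CPM. Only the cultured rise passed (log2 fold change 2.10 ± 0.34 (SE), edgeR adjusted p = 0.000219). All 3 late SV40-I libraries lay below every naive and every OT-I library, differences that did not pass (log2 fold change -0.82 ± 0.33 and -0.87 ± 0.33, edgeR adjusted p = 0.102 and 0.128).

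Slc38a3 and Slc38a4, which encode SNAT3 and SNAT4, carriers known from liver, were at or near 0 outside the day 20 to 21 lesion libraries. Slc38a3 was at 0, 4.78 and 0.991 CPM in late SV40-I and 0.0905, 2.40 and 10.4 CPM in OT-I libraries, and Slc38a4 at 0.800, 6.70 and 0 and 0, 10.3 and 17.2 CPM. The highest values were in the 3 libraries over 500 CPM of hepatocyte transcripts (SV40-I replicate 2, OT-I replicates 2 and 3). Naive cells held 1 count of Slc38a3 in all. As summed counts over summed library totals, the ratio to naive cells was 303 (95% counting interval 53.9 to 11990) for late SV40-I cells. For OT-I cells it was 650.4 (116 to 25730). Both edgeR calls were lost with the hepatocyte list as a covariate (adjusted p = 0.302 and 0.717), without SV40-I replicate 2 or OT-I replicate 2 or 3 respectively, and without any 1 of the 3 naive libraries (adjusted p from 0.0790 to 0.104 and adjusted p from 0.0573 to 0.132). The late SV40-I and naive libraries overlapped in Slc38a3. The part of hepatocyte transcripts in Slc38a4 was not tested, and it had no pairwise call (adjusted p = 0.0750 and 0.0737 by edgeR). The test over 7 groups called Slc38a4 (adjusted p = 0.0124 by edgeR). The related Slc38a5 (SNAT5) was at 0 in all late SV40-I libraries and at 1.33, 0.567 and 1.15 CPM in OT-I libraries, with no pairwise call (edgeR adjusted p = 0.106). Its highest level, 4.07 CPM, was in naive replicate 1, and the test over 7 groups called it (adjusted p = 0.0252 by edgeR).

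The cationic carrier Slc7a1 (chromosome 5, 148327410 to 148399904, minus strand) encodes CAT1, an arginine and lysine carrier. Naive libraries had 20.8, 26.2 and 33.1 CPM, marker-low 67.4, 72.0 and 72.3 CPM and marker-high 43.2, 58.1 and 36.1 CPM. Late SV40-I libraries had 16.9, 34.5 and 18.1 CPM and OT-I libraries 33.8, 38.1 and 38.8 CPM. Cultured libraries had 154 and 131 CPM with GFP and 123 and 117 CPM with TOX-GFP, above all ex vivo libraries, among which the marker-low ones were highest. It rose against naive cells in GFP (log2 fold change 2.05 ± 0.27 (SE), edgeR adjusted p = 3.97e-05) and marker-low cells (log2 fold change 1.46 ± 0.27 (SE), edgeR adjusted p = 0.00361). The marker-high rise of 0.81 ± 0.27 (edgeR adjusted p = 0.0461) was lost with other size factors (adjusted p = 0.0565) and without any 1 of the naive libraries or marker-high replicate 1 or 2 (adjusted p from 0.0538 to 0.175). With the macrophage list as a covariate both early calls were lost at log2 fold changes of 1.21 ± 0.39 and 0.48 ± 0.46 (edgeR adjusted p = 0.0737 and 0.553 for marker-low and marker-high).

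Slc7a3 (chromosome X, 101079210 to 101086020, minus strand), which encodes the second cationic carrier CAT3, was at 92 and 106 CPM in GFP and 117 and 118 CPM in TOX-GFP cells, above every ex vivo library (log2 fold change 9.88 ± 1.89 (SE), edgeR adjusted p = 0.000864 for GFP against naive). Naive cells had 0.0388, 0.175 and 0.0218 CPM, marker-low cells 0, 3.23 and 0.766 CPM and marker-high cells 1.41, 0.384 and 0 CPM, late SV40-I cells 0.0235, 0.775 and 0.0413 CPM and OT-I cells 0.0226, 0 and 0.0213 CPM. No ex vivo library exceeded 3.23 CPM. Its relative Slc7a2 (CAT2) had over 1 CPM only in the 3 libraries rich in hepatocyte transcripts, with 4.72 CPM in SV40-I replicate 2 and 4.46 and 6.80 CPM in OT-I replicates 2 and 3. Slc7a6 (chromosome 8, 106168857 to 106198706, plus strand) encodes y+LAT2, which exchanges arginine for glutamine. It was at 45.9, 32.8 and 52.1 CPM in naive and 59.7, 92.7 and 89.4 CPM in marker-low cells, which did not overlap (log2 fold change 0.94 ± 0.27 (SE), edgeR adjusted p = 0.0334). That call was lost without any 1 of the naive libraries or marker-low replicate 2 or 3 (adjusted p from 0.0589 to 0.130). Marker-high cells had 80.3, 64.9 and 53.5 CPM, late SV40-I cells 49.9, 52.5 and 26.2 CPM and OT-I cells 41.1, 40.3 and 38.2 CPM. The cultured libraries, at 68.3 and 64.7 CPM with GFP and 64.1 and 66.6 CPM with TOX-GFP, lay within the range of the marker-low ones.

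Slc7a7 (chromosome 14, 54369442 to 54417780, minus strand), which encodes y+LAT1, was at 31.0, 16.1 and 20.5 CPM in marker-high and 7.09, 40.5 and 10.1 CPM in marker-low cells. Naive cells had 4.15, 2.02 and 2.34 CPM, late SV40-I cells 0.0235, 1.16 and 2.13 CPM and OT-I cells 3.67, 3.43 and 1.74 CPM, and the cultured libraries 0.789 and 0.654 CPM with GFP and 1.29 and 0.961 CPM with TOX-GFP. All early lesion libraries were above all others. Slc7a7 was higher in marker-high than in naive cells (log2 fold change 3.02 ± 0.98 (SE), edgeR adjusted p = 0.0406) and lower in late SV40-I than in marker-high cells (log2 fold change -4.30 ± 1.04 (SE), edgeR adjusted p = 0.0316). The first call was lost with the replicate number as a block (edgeR adjusted p = 0.0587) and without any 1 of the 6 libraries (adjusted p from 0.0626 to 0.124). The other was also lost with that block (edgeR adjusted p = 0.0533), and without SV40-I replicate 2 or 3 or marker-high replicate 1 or 2 (adjusted p from 0.0550 to 0.103). As for Slc7a8, the level was highest in the library with most macrophage transcripts. With the macrophage list as a covariate the log2 fold change of marker-high against naive cells was -0.88 ± 1.13 (SE, edgeR adjusted p = 0.673).

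**Figure D5:**
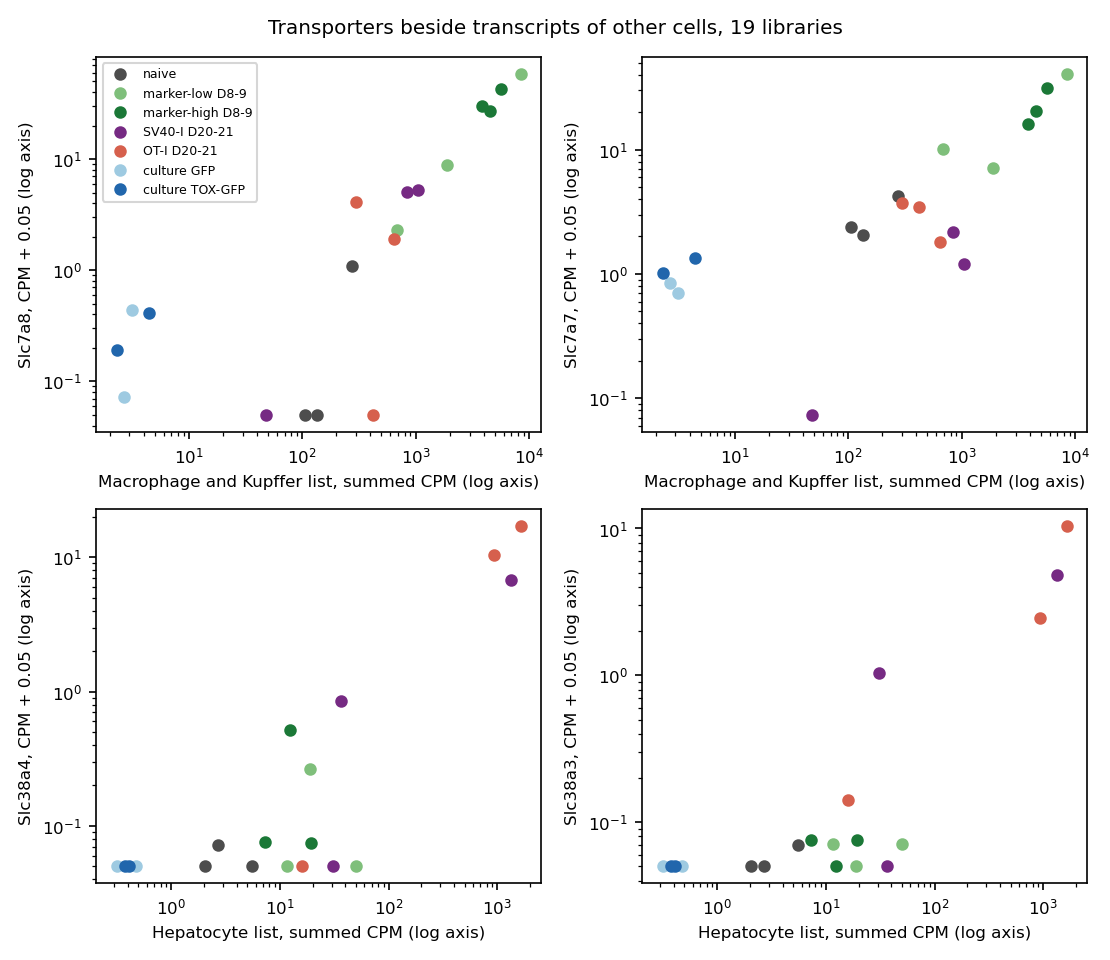
Slc7a8 and Slc7a7 against the summed CPM of 9 macrophage and Kupffer genes, and Slc38a4 and Slc38a3 against that of 10 hepatocyte genes, in 19 libraries on log axes, with 0.05 CPM added to the transporters. Marker-low replicate 2, at 8449 CPM of macrophage transcripts, has the highest Slc7a8 and Slc7a7, and the 3 libraries at 938 to 1642 CPM of hepatocyte transcripts have the highest Slc38a4 and Slc38a3.

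The cystine and glutamate exchanger Slc7a11 (chromosome 3, 49892526 to 50443614, minus strand), which encodes xCT, was low throughout. It was at 0.271, 0.0438 and 0.240 CPM in naive, 4.08, 6.06 and 0.994 CPM in marker-low and 2.12, 3.51 and 2.47 CPM in marker-high cells. Late SV40-I and OT-I cells had 0.170 to 1.01 CPM, GFP cells 5.59 and 2.90 CPM and TOX-GFP cells 8.49 and 7.19 CPM. It rose against naive cells in marker-low (4.38 ± 0.94), marker-high (3.88 ± 0.92) and GFP cells (4.13 ± 0.89; log2 fold change ± SE, edgeR adjusted p from 0.00220 to 0.00947). With the macrophage list as a covariate the early calls were lost at log2 fold changes of 2.45 ± 1.11 and 1.73 ± 1.25 (adjusted p = 0.185 and 0.415 by edgeR). In late SV40-I cells the difference from naive cells did not pass (log2 fold change 1.57 ± 0.86, edgeR adjusted p = 0.220). The glutamate carrier Slc1a2 reached 17.8 CPM in marker-high replicate 1 alone and stayed at or under 2.10 CPM in the other 18 libraries.

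Promoter sequence is shown for members that rose in cultured cells, since ATF4 is known to bind a composite C/EBP-ATF element. RefSeq promoter windows (GRCm38.p6, 250 bases before to 50 after the start) matched 24 of 33 members. No window was at hand for Slc7a5, Slc1a5, Slc38a1, Slc7a3, Slc6a6, Slc43a3, Slc38a3, Slc7a2 and Slc7a4. These were not searched, and the first 6 named rose in cultured cells. The element, searched as TGATGNAA on both strands, was found in 3 of the 24 (12.5%: Slc7a11, Slc1a4 and Slc7a7), against 4.51% of all 27025 genes with a window. The E-box CACGTG, a MYC site read alike on both strands, was found in 4 (Slc36a1, Slc38a5, Slc38a7 and Slc43a1), against 8.09% of genes, and the AP-1 site TGANTCA in 4 (Slc38a10, Slc38a7, Slc6a12 and Slc7a1), against 8.97%. No motif was searched beyond these 3, none of which overlaps another in the lines below, and a match is a description only. Shown are 200 bases, 190 before to 10 after the start, 5′ to 3′ on the gene's strand, for 3 members that rose in cultured cells and hold a match, with each match in capitals: 2 elements in opposite orientation in Slc7a11, 1 at the start of Slc1a4 and 1 AP-1 match in Slc7a1. All 3 genes lie on the minus strand, at chr3:50443604-50443803, chr11:20332704-20332903 and chr5:148399895-148400094.
Slc7a11: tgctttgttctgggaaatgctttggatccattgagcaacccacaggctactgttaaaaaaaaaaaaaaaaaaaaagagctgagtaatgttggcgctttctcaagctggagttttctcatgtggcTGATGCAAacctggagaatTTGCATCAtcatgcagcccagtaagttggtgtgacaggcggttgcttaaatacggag
Slc1a4: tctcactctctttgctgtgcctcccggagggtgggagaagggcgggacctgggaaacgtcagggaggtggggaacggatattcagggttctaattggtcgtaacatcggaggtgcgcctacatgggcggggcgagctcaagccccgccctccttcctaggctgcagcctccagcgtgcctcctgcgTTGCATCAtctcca
Slc7a1: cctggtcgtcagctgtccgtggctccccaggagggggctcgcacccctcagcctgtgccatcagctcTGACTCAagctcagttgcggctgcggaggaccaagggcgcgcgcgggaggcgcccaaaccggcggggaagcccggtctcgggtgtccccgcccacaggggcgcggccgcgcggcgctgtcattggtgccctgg

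Slc38a9, Slc38a7 and Slc36a1, carriers known from the lysosome, fell in cultured cells. Slc38a9 (chromosome 13, 112660751 to 112738749, plus strand) encodes an arginine sensor that signals from the lysosome to mTORC1. It was at 20.5, 20.3 and 30.3 CPM in naive, 17.4, 20.7 and 19.5 CPM in marker-low and 22.3, 17.4 and 35.8 CPM in marker-high cells. Late SV40-I cells had 30.3, 41.3 and 37.9 CPM, OT-I cells 19.6, 25.9 and 19.5 CPM, GFP cells 15.2 and 13.5 CPM and TOX-GFP cells 18.2 and 15.2 CPM. The GFP libraries were below every ex vivo library. Slc38a9 fell in GFP against naive cells (log2 fold change -1.10 ± 0.30 (SE), edgeR adjusted p = 0.0106), a call lost without GFP replicate 1 or 2 (adjusted p from 0.0796 to 0.116). It was higher in late SV40-I than in OT-I cells with no overlap, which did not pass (log2 fold change 0.82 ± 0.27, edgeR adjusted p = 0.0860).

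Slc38a7 (chromosome 8, 95835920 to 95853539, minus strand), a lysosomal glutamine and asparagine exporter, was at 42.6, 42.1 and 49.3 CPM in naive and 25.7 and 25.2 CPM in GFP cells (log2 fold change -1.19 ± 0.36 (SE), edgeR adjusted p = 0.0190). The call was lost without GFP replicate 1 or 2 (adjusted p from 0.131 to 0.141). TOX-GFP cells had 21.4 and 21.0 CPM, late SV40-I cells 64.0, 60.9 and 47.6 CPM and OT-I cells 37, 23.5 and 42.8 CPM. Early cells had 19.1, 44.5 and 19 CPM in marker-low and 28.8, 24.0 and 33.9 CPM in marker-high libraries. Late SV40-I libraries were above all others but 1 naive library, at 49.3 CPM. Slc36a1 (chromosome 11, 55204350 to 55236330, plus strand) encodes PAT1, a proton-coupled exporter of small amino acids. It was at 10.7, 16.9 and 15.3 CPM in late SV40-I, 3.82, 5.72 and 4.21 CPM in naive and 6.99, 2.92 and 2.81 CPM in OT-I cells. Marker-low cells had 6.09, 4.47 and 0.849 CPM, marker-high cells 3.76, 6.27 and 10.9 CPM, GFP cells 1.01 and 1.55 CPM and TOX-GFP cells 1.63 and 2.41 CPM. Its fall in GFP cells passed (log2 fold change -2.22 ± 0.76 (SE), edgeR adjusted p = 0.0350) and was lost without naive replicate 2 or GFP replicate 1 or 2 (adjusted p from 0.0792 to 0.250). Late SV40-I libraries did not overlap naive or OT-I ones, but neither difference passed (edgeR adjusted p = 0.0886 and 0.119). Slc36a4, the related carrier PAT4, ran from 0.0955 to 16.7 CPM over all libraries, with 16.7 and 15.9 CPM in TOX-GFP and 10.3 and 11.8 CPM in GFP cells, and had no call.

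In family 6, Slc6a19 (chromosome 13, 73679745 to 73704865, minus strand), which encodes the neutral amino acid carrier B0AT1 known from gut and kidney, had the largest called log2 fold change of any member. Naive libraries had 719, 669 and 1081 CPM. Marker-low libraries had 8.76, 43.5 and 32.4 CPM and marker-high libraries 4.49, 1.33 and 0.129 CPM. Late SV40-I libraries had 0.141, 0.0738 and 0.0619 CPM, OT-I libraries 0.0905, 0.838 and 2.49 CPM, GFP libraries 75.3 and 111 CPM and TOX-GFP libraries 56.0 and 57.6 CPM. The naive libraries stood above all others, followed by the cultured, the marker-low and then the remaining lesion libraries, and only those last 3 groups overlapped. It fell against naive cells in late SV40-I (-13.03 ± 1.56), OT-I (-9.46 ± 1.32), marker-high (-8.66 ± 1.27), marker-low (-4.82 ± 1.07) and GFP cells (-3.51 ± 1.09; log2 fold change ± SE, edgeR adjusted p from 9.95e-05 to 0.0214). The GFP call was lost without GFP replicate 1 or 2 (adjusted p from 0.115 to 0.169), and the marker-low call with the macrophage list as a covariate, where the log2 fold change was -5.51 ± 1.71 (adjusted p = 0.0662 by edgeR). Marker-high libraries were all below marker-low ones (log2 fold change -3.84 ± 1.04, edgeR adjusted p = 0.113), which did not pass.

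The taurine carrier Slc6a6 (chromosome 6, 91684053 to 91759066, plus strand) was at 11.8, 14.5 and 16.3 CPM in naive, 19.4, 33.1 and 32.3 CPM in marker-low and 33.8, 34.1 and 22.8 CPM in marker-high cells. Late SV40-I cells had 26.1, 15.5 and 16.8 CPM, OT-I cells 22.3, 43.9 and 18.6 CPM, GFP cells 145 and 111 CPM and TOX-GFP cells 125 and 125 CPM. The cultured libraries were above all ex vivo ones (log2 fold change 2.79 ± 0.34 (SE), edgeR adjusted p = 2.16e-05 for GFP against naive). Its marker-high rise (1.12 ± 0.34, edgeR adjusted p = 0.0315) was lost without any 1 of the naive libraries or marker-high replicate 1 or 2 (adjusted p from 0.0654 to 0.106). The glycine carrier Slc6a9 (chromosome 4, 117834506 to 117875198, plus strand), with the exon overlap given above, was at 25.7 and 24.3 CPM in GFP and 19.5 and 19.2 CPM in TOX-GFP cells, above every ex vivo library (log2 fold change 6.94 ± 1.75 (SE), edgeR adjusted p = 0.00630 for GFP against naive). Naive cells had 0, 0 and 0.480 CPM, marker-low cells 1.46, 5.07 and 0.684 CPM and marker-high cells 0.580, 0 and 0.386 CPM, late SV40-I cells 0.565, 0.498 and 0.681 CPM and OT-I cells 0.973, 0.216 and 0.0425 CPM. The GABA carrier Slc6a13 was called higher in late SV40-I and OT-I than in naive cells (log2 fold change 4.40 ± 1.31 and 5.06 ± 1.35, edgeR adjusted p = 0.0332 and 0.0364). Its levels there were 1.41, 3.87 and 0.268 CPM and 0.407, 1.65 and 6.95 CPM, highest in SV40-I replicate 2 and OT-I replicate 3, which also held the most hepatocyte transcripts of their groups. Both calls were lost with the hepatocyte list as a covariate at log2 fold changes of 1.58 ± 1.22 and 1.34 ± 1.41 (edgeR adjusted p = 0.443 and 0.776) and without any 1 of the naive libraries, SV40-I replicate 1 or 2 for the first or OT-I replicate 2 or 3 for the second (adjusted p from 0.0520 to 0.116 and adjusted p from 0.0570 to 0.152).

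Of the remaining members, Slc43a3 (chromosome 2, 84936579 to 84958509, plus strand) is known to carry purine bases rather than amino acids. Naive libraries had 11.1, 4.86 and 5.43 CPM, marker-low 27.8, 30.8 and 27.8 CPM and marker-high 68.7, 73.5 and 51.3 CPM. Late SV40-I libraries had 25.8, 21.1 and 15.1 CPM, OT-I 16.4, 13.1 and 17.5 CPM, GFP 59.1 and 46.2 CPM and TOX-GFP 70.7 and 72.3 CPM. The naive libraries were the lowest of all 19, and marker-high and cultured ones the highest. It rose in all 5 comparisons with naive cells, from 1.16 ± 0.33 in OT-I (SE, edgeR adjusted p = 0.0484) to 3.21 ± 0.35 in marker-high cells (adjusted p = 4.61e-05 by edgeR). The OT-I call was lost without naive replicate 2 or 3 or any 1 of the OT-I libraries (adjusted p from 0.0644 to 0.178) and with other size factors (adjusted p = 0.0558). With the hepatocyte list as a covariate it was lost at 1.11 ± 0.48 (SE, edgeR adjusted p = 0.300). Slc43a3 was lower in late SV40-I than in marker-high cells (log2 fold change -1.59 ± 0.33 (SE), edgeR adjusted p = 0.0150), a call lost without SV40-I replicate 2 or 3 or marker-high replicate 1 or 2 (adjusted p from 0.0597 to 0.0756). In Slc43a3 marker-high libraries were all above marker-low ones, which did not pass (log2 fold change 1.13 ± 0.32, edgeR adjusted p = 0.143).

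Slc38a10 (chromosome 11, 120103960 to 120151346, minus strand), an orphan of family 38, was at 415, 350.4 and 492 CPM in naive and 801, 745 and 632 CPM in late SV40-I cells. Marker-low cells had 364, 559 and 335 CPM, marker-high cells 419, 421 and 675 CPM and OT-I cells 478, 439 and 452 CPM. GFP cells had 268 and 235 CPM and TOX-GFP cells 281 and 276 CPM, below every ex vivo library. It was the 1 member that rose in one comparison with naive cells and fell in another, higher in late SV40-I (log2 fold change 0.88 ± 0.23 (SE), edgeR adjusted p = 0.0203) and lower in GFP cells (log2 fold change -1.11 ± 0.25 (SE), edgeR adjusted p = 0.00273). The rise was lost without naive replicate 1 or 2 or SV40-I replicate 1 or 2 (adjusted p from 0.0635 to 0.0860), and the fall without GFP replicate 2 (adjusted p = 0.0545). With the hepatocyte list as a covariate the rise was lost at 0.88 ± 0.32 (SE, edgeR adjusted p = 0.104). A list of erythroid and platelet genes as a covariate left it at 0.83 ± 0.27 (SE, edgeR adjusted p = 0.0661). Besides Slc1a2 and Slc36a4, 4 members had no call in any test. These were Slc38a6 (0.371 to 2.47 CPM over the 19 libraries), Slc7a4 (0 to 4.68 CPM), Slc36a3 (0.118 to 2.93 CPM) and the betaine and GABA carrier Slc6a12 (0 to 3.72 CPM). Slc6a12 had no count in any naive library and was highest in marker-low replicate 2.

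Lists of genes that use, sense or answer to amino acids were read beside the transporters. For GFP against naive cells, 17.6% of all genes were called higher and 15% lower, which is the background for each list. Of 26 genes of the ATF4 and amino acid response, 21 were higher and 1 lower in GFP than in naive cells, with a median log2 fold change of 3.14, beside 0.00 over all genes. Among them Asns, which makes asparagine, rose by 9.34 ± 0.61, the serine pathway gene Psat1 by 3.29 ± 0.26 and the translation inhibitor Eif4ebp1 by 5.58 ± 0.44 (log2 fold change ± SE, edgeR adjusted p = 1.75e-07, 5.88e-07 and 5.88e-07). Of the 25 tested ex vivo, 10 were higher and 1 lower in marker-high, 9 and 0 in marker-low, 4 and 1 in late SV40-I and 1 and 0 in OT-I than in naive cells. Over all genes the shares called higher and lower were 14.3% and 9.10%, 10.6% and 6.21%, 11.1% and 6.86%, and 5.06% and 2.29%, so the late SV40-I and OT-I counts lie near the background. The 1 OT-I call was Asns (log2 fold change 3.83 ± 0.57 (SE), edgeR adjusted p = 0.000930). Between late SV40-I and OT-I cells 0 were higher and 2 lower, Trib3 (-3.39) and Nars (-0.83; edgeR adjusted p = 0.0199 and 0.0314). Between late SV40-I and marker-high cells 4 were lower and 0 higher, led by Psat1 (log2 fold change -1.54 ± 0.25 (SE), edgeR adjusted p = 0.00407). For late SV40-I cells, the shares of all genes called higher and lower were 4.91% and 4.11% against OT-I and 1.76% and 3.57% against marker-high cells.

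Of 32 amino acid sensing and mTORC1 genes in culture, 8 were higher and 11 lower in GFP than in naive cells (median log2 fold change -0.35). The shares of all genes in that comparison, 17.6% higher and 15% lower, also apply to the GFP counts of the lists below. The GTPase subunit Rragc rose (log2 fold change 4.54 ± 0.57 (SE), edgeR adjusted p = 2.59e-05) and the mTORC1 inhibitor subunit Nprl2 fell (log2 fold change -1.44 ± 0.17 (SE), edgeR adjusted p = 1.58e-05). Of 25 genes of amino acid use, 13 were higher and 2 lower in GFP cells (median 1.20), among them the polyamine enzyme Odc1 (log2 fold change 5.05 ± 0.43 (SE), edgeR adjusted p = 1.14e-06) and the branched-chain aminotransferase Bcat1 (log2 fold change 10.31 ± 1.36 (SE), edgeR adjusted p = 4.02e-05). In lesion cells against naive, 9 of these were higher and 0 lower in marker-high, 8 and 0 in marker-low, 4 and 3 in late SV40-I and 1 and 0 in OT-I cells. The shares of all genes, in this order, were 14.3% and 9.10%, 10.6% and 6.21%, 11.1% and 6.86%, and 5.06% and 2.29%. The late SV40-I and OT-I counts of higher genes lie near these shares. Other amino acid carriers, of the mitochondrion and lysosome, had 1 of 15 higher and 4 lower in GFP cells (median -0.93), led by the glycine carrier Slc25a38 (log2 fold change -1.73 ± 0.22 (SE), edgeR adjusted p = 2.63e-05). Of 12 transcription factors tied to transporter expression, 7 were higher and 1 lower in GFP cells, with Atf4 (1.87 ± 0.17) and Myc (2.39 ± 0.25) among the rises (SE, edgeR adjusted p = 1.51e-06 and 6.56e-06). Myc was higher in marker-low than in naive cells (log2 fold change 1.93 ± 0.25 (SE), edgeR adjusted p = 0.000300), lower in marker-high than in marker-low cells (log2 fold change -1.20 ± 0.25 (SE), edgeR adjusted p = 0.0366) and lower in late SV40-I than in OT-I cells (log2 fold change -1.25 ± 0.25 (SE), edgeR adjusted p = 0.00670). Between TOX-GFP and GFP cells edgeR called no gene of the 5 lists, as it called none of the 14614 genes tested.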

How the data were processed

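RNA of 19 libraries was amplified with SMART-seq V4 and sequenced in read pairs on an Illumina HiSeq, per the labels. The authors deposited raw counts per gene, made with featureCounts 1.6.2 in paired mode without a strand option on GENCODE M17 (GRCm38.p6), per the file headers, and STAR is named in the submitters' processing notes. No molecular identifiers were used, so counting intervals and floors hold no other error, and depth was 37006508 to 54195918 counts per library. CPM is the count over the library total. Counts were fitted with edgeR 4.0.16 (TMM, filterByExpr, robust quasi-likelihood F test) in R 4.3.3, in 3 fits of 15 ex vivo, 4 cultured and all 19 libraries (16404, 14614 and 18608 genes), with Benjamini-Hochberg adjustment over all genes and calls at 0.05, and the scripts were tested on simulated data. Standard errors are the log2 fold change over the root of F. No label ties replicates to different mice or cultures, and p-values cover the spread between libraries alone, which may be technical. Replicates of a group differed by more than counting noise (chi-square over degrees of freedom 29.9 to 485.3), so each library counts as 1 sample. Same-numbered marker-high and naive libraries deviated together (correlations over genes 0.169, 0.268 and 0.294). No label pairs them, and no other comparison with 3 title-numbered pairs had every correlation over 0.1. Members and lists were chosen with earlier results of these data known. All called members are named, those of 10 CPM or more in a group mean with every library's value, and of each pathway list at most the 3 with the smallest p of a comparison. DESeq2 1.42.0, RLE factors, filters, blocks, covariates and left-out libraries were alternatives.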

Additional observations from a re-analysis of the deposited data

Results flagged for a closer look

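For 3 transporters the change against naive cells differed between SV40-I cells of days 20 to 21 and marker-high cells of days 8 to 9, by a direct edgeR test of the 2 groups in which the naive libraries drop out. The differences in log2 fold change (late minus marker-high) were 1.26 for Slc1a5, -1.59 for Slc43a3 and -4.30 for Slc7a7. Each was lost without some single libraries, and macrophage transcripts (47.7 to 1051 CPM in late SV40-I and 3870 to 5699 CPM in marker-high libraries) also separated these groups. With the macrophage sum as a covariate the differences were 0.44 for Slc1a5, -1.65 for Slc43a3 and -2.10 for Slc7a7 (edgeR adjusted p = 0.506, 0.125 and 0.245), so that of Slc43a3 was as large as before and the other two were smaller. Groups held at most 3 libraries, too few for an outlier test. Marker-high replicate 3 stood apart from its group, and 9 members were called between these groups without it.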

How the results depend on the processing

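Alternatives with macrophage transcripts, and those leaving out libraries over 500 CPM of hepatocyte or 5000 CPM of macrophage transcripts, were chosen after seeing the data. Counts of called transporters that moved by over 1.5 times follow, with the cause not tested beyond the fewer libraries or genes some settings use. DESeq2 called 8 between SV40-I and OT-I cells (2 by edgeR), 2 between marker-high and marker-low (0), 16 in late SV40-I (9), 9 in OT-I (5) and 13 in marker-low cells (8) against naive, 10 between late SV40-I and marker-high (3) and 2 between TOX-GFP and GFP cells (0). Fitting only the groups compared gave 4 for SV40-I against OT-I, 2 for OT-I against naive and 1 for late SV40-I against marker-high cells, which had 7 in a fit of all 19 libraries and 5 with a filter at 5 CPM. The hepatocyte covariate gave 5 for late SV40-I and 1 for OT-I against naive, the erythroid one 1 for OT-I, and the macrophage one 2 for OT-I, 4 for marker-high and 2 for marker-low. Without libraries over 1000 CPM of hepatocyte transcripts the counts were 1 for SV40-I against OT-I, 5 and 2 for late SV40-I and OT-I against naive, and 1 for late SV40-I against marker-high, and over 500 CPM they were 0, 5, 1 and 0. Without libraries over 5000 CPM of macrophage transcripts they were 5 for marker-high against naive and 0 for late SV40-I against marker-high. Leaving out single libraries gave 2 to 3 for SV40-I against OT-I, 0 to 0 for marker-high against marker-low, 5 to 9, 2 to 5, 6 to 8 and 6 to 8 for late SV40-I, OT-I, marker-high and marker-low against naive, 0 to 9 for late SV40-I against marker-high, 0 to 1 for TOX-GFP against GFP, 13 to 19 for GFP against naive and 26 to 28 over all groups; lone cultured libraries are assumed to vary like the others. The replicate block by title number gave 3 calls for SV40-I against OT-I, 8 for late SV40-I, 3 for OT-I, 8 for marker-high and 8 for marker-low against naive, 2 for late SV40-I against marker-high, 0 in the other contrasts of marker and TOX, 18 for GFP against naive and 23 over all groups. The replicate block by the number in the table names gave 5 and 2 for late SV40-I and OT-I against naive and 1 for late SV40-I against marker-high, and could not be fitted over all 19 libraries. Every library correlated best with its own title number in late SV40-I against naive, marker-high against naive and late SV40-I against marker-high, a hint from the data only. Members measured were 37 at 0.5 CPM, 24 at 5 CPM and 25 at 1 CPM in every library of a group. Of 860 alternative values of 54 single calls, 680 kept direction and call, 179 lost the call in the same direction, and 1 turned, Slc7a7 in marker-high against naive cells with the macrophage covariate (-0.88). All alternatives kept 25 of the 54. Size factors moved the median of all genes by at most 0.031. Depth limits members under about 1 CPM.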

Other observations

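Among the measured members, 6 neighbouring pairs lay within 304.4 kilobases of each other on GRCm38.p6. Slc43a1 and Slc43a3, 73.0 kilobases apart on chromosome 2, differed in direction. Against naive cells in late SV40-I cells Slc43a1 fell (log2 fold change -6.35 ± 1.27, SE, edgeR adjusted p = 0.00389) and Slc43a3 rose (1.62 ± 0.33, edgeR adjusted p = 0.00433). Slc38a1 and Slc38a2, 44.5 kilobases apart on chromosome 15, both rose in cultured GFP cells, while of these only Slc38a1 was called in lesion cells. Slc7a7 and Slc7a8, 304.4 kilobases apart on chromosome 14, were both highest in marker-low replicate 2. The other pairs were Slc36a3 with Slc36a1, Slc38a2 with Slc38a4, and Slc6a13 with Slc6a12. Of the 27 members that were not measured, 19 had at most 10 counts over all 19 libraries together.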
